A study of Mus musculus with 7 samples.

Results

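Genes of blood coagulation and fibrinolysis were examined in dorsal skin of aged mice after topical ABT-263. The members are F3, F10, F13a1, Thbd, Procr, Tfpi, Plat, Plau, Plaur and Serpine2, 10 of the 55450 genes in the deposited count table, and they were chosen by name for their roles in clotting, its inhibition and plasminogen activation. The choice was made with earlier results of these data known. ABT-263 (navitoclax) is a senolytic, a small molecule that blocks anti-apoptotic Bcl-2 family proteins. Wild-type male C57BL/6 mice aged 24 months received 5 μM ABT-263 (3 mice, numbered 476, 477 and 478) or DMSO, the vehicle alone (4 mice, numbered 480 to 483), on clipped and chemically depilated dorsal skin. The area stayed under a semi-occlusive dressing for 5 days, and polyA RNA of whole skin was then sequenced in bulk, with 1 library per mouse. Depilation, dressing, age and sex were shared by both groups, so the comparison asks what the drug added to them. Whole skin holds many cell types, and in such libraries more cells of a type and more RNA per cell cannot be told apart.

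Coagulation is a cascade of proteases in which tissue factor on cells outside the blood meets circulating factor VII when a vessel is injured, activates factor X and leads through thrombin to a cross-linked fibrin clot. Inhibitors restrain the cascade near its start, and on endothelium thrombomodulin turns thrombin from a clotting enzyme into an activator of protein C. Fibrinolysis removes the clot through plasmin, which tissue-type and urokinase-type activators cut from plasminogen. In skin these activators and their receptor also take part in cell migration and matrix remodelling during repair. Most circulating factors, factor X among them, are made chiefly in the liver, whereas tissue factor, the receptors and the plasminogen activators act or are made in the vessel wall, epithelia, connective tissue or leukocytes.

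All 10 members had enough counts to be tested. By the quasi-likelihood test of edgeR, 8 were higher after ABT-263 and none was lower (adjusted p under 0.05), where 12.4% of all 17959 genes tested were higher, 11.7% lower and 24.2% passed in either direction. The members that rose were F3, F10, Thbd, Procr, Tfpi, Plat, Plau and Plaur, and the values of F13a1 and Serpine2 did not pass. Every ABT-263-treated mouse lay above every DMSO-treated mouse for 7 of the 10 members, a pattern found in 18.7% of all genes tested (18.4% in the opposite direction, 37.1% in either). The median log2 fold change of the 10 members was 1.40 (range 0.09 to 4.11), against 0.002 over all genes tested. Because earlier results were known when the members were chosen, these counts and medians are descriptive only. Levels are given in CPM, the gene's count relative to the library total after scaling for library composition, fold changes are ABT-263 over DMSO, and SE is the standard error of the log2 fold change.

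**Figure D1:**
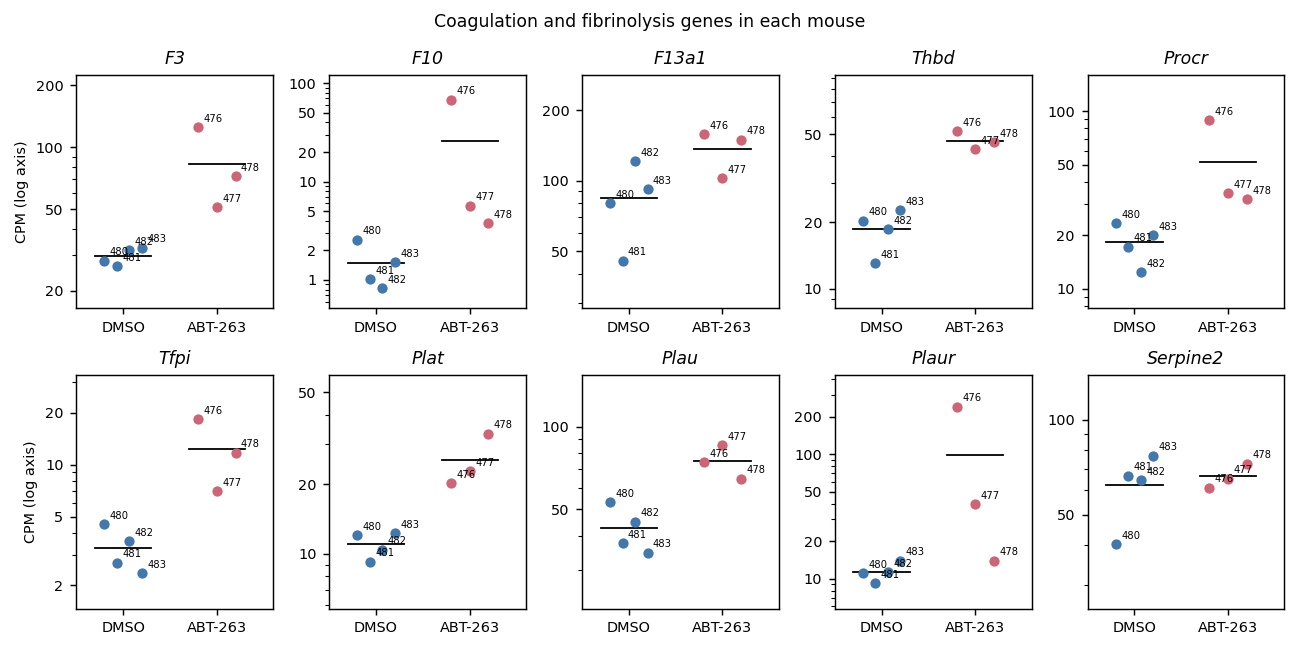
CPM of each of the 10 members in every mouse, on log axes, with DMSO-treated mice 480 to 483 and ABT-263-treated mice 476 to 478 as points and group means as lines. For F10 and Plaur mouse 476 (68.1 and 242 CPM) stands far above the other ABT-263-treated mice, whereas the Thbd points of the 3 mice lie between 42.8 and 51.8 CPM.

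F3 encodes tissue factor, the membrane receptor that starts coagulation. It lies on chromosome 3 from 121723537 to 121735048 (GRCm38), and all its exons were counted together. F3 stood at 28.1, 26.3, 31.6 and 32.5 CPM in DMSO-treated mice 480 to 483 and at 125, 51.0 and 72.1 CPM in ABT-263-treated mice 476, 477 and 478. Each ABT-263-treated mouse was thus above the whole DMSO group, and mouse 476 was 2.04 times the mean of the other ABT-263-treated mice. Its log2 fold change was 1.48 (SE 0.28, adjusted p = 0.0117 from edgeR), or 2.79-fold (95% confidence interval 1.801 to 4.33). F3 passed in all 7 fits that left out 1 mouse each, with log2 fold changes of 1.06 to 1.77 and the lowest without mouse 476.

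F10 encodes factor X, whose active form converts prothrombin to thrombin, and lies on chromosome 8 from 13037308 to 13056676. In DMSO-treated mice it was rare, at 2.58, 1.01, 0.821 and 1.52 CPM, while the ABT-263-treated mice had 68.1, 5.67 and 3.80 CPM. The groups did not overlap, but mouse 476 had 14.4 times the mean of mice 477 and 478, the highest such ratio among the members. The log2 fold change of 4.11 (SE 1.05, adjusted p = 0.0309 from edgeR) therefore has a wide interval, from 3.15-fold to 94.5-fold. Without mouse 476 it was 1.67 and did not pass (adjusted p = 0.0528 from edgeR). The call was also lost without DMSO-treated mice 481, 482 and 483 (log2 fold changes 3.96, 3.91 and 4.12, adjusted p = 0.0670, 0.0766 and 0.0743 from edgeR).

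F13a1 encodes the A subunit of factor XIII, the transglutaminase that cross-links fibrin, and is also made by macrophages and megakaryocytes. It lies on chromosome 13 from 36867178 to 37050244, with Gm30489 on the other strand. F13a1 was at 80.2, 45.5, 121 and 91.7 CPM after DMSO and at 158, 102 and 150 CPM after ABT-263. Mouse 477 fell inside the DMSO range, and the log2 fold change of 0.69 (SE 0.31, adjusted p = 0.135 from edgeR) had a 95% interval from -0.02 to 1.40, so a difference was not resolved with these mice.

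Among the genes that restrain clotting, Tfpi encodes tissue factor pathway inhibitor, which blocks factor Xa and the complex of tissue factor with factor VIIa. It lies on chromosome 2 from 84432855 to 84476775. Its levels were low in DMSO-treated mice, at 4.50, 2.697, 3.59 and 2.34 CPM, and reached 18.4, 7.01 and 11.7 CPM in the ABT-263-treated mice. All 3 lay above the DMSO group, with mouse 476 highest. The log2 fold change was 1.91 (SE 0.36, adjusted p = 0.0118 from edgeR), and Tfpi passed in all 7 fits without 1 mouse (1.52 to 2.22).

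Thbd encodes thrombomodulin, the endothelial receptor that binds thrombin, which keratinocytes of the upper epidermis also make. It is an intronless gene on chromosome 2 from 148404466 to 148408188. After DMSO it measured 20.4, 13.1, 18.6 and 22.7 CPM, and after ABT-263 it measured 51.8, 42.8 and 46.1 CPM. No member among those that rose had a smaller relative spread within the ABT-263 group, and the gap between the groups exceeded the range of either. The log2 fold change was 1.33 (SE 0.19, adjusted p = 0.00676 from edgeR), and it stayed between 1.18 and 1.43 and passed with any 1 mouse left out.

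Procr encodes the endothelial protein C receptor, which presents protein C to thrombomodulin, and lies on chromosome 2 from 155751117 to 155755471. It measured 23.4, 17.3, 12.4 and 20.05 CPM in the DMSO group and 89.2, 34.5 and 32.0 CPM in the ABT-263 group. The groups did not overlap, and mouse 476 had 2.69 times the mean of the other ABT-263-treated mice. Its log2 fold change was 1.501 (SE 0.39, adjusted p = 0.0305 from edgeR). Without mouse 476 it was 0.87 (adjusted p = 0.0506 from edgeR), and the call was also lost without DMSO-treated mice 481, 482 and 483 (1.47, 1.35 and 1.54, adjusted p = 0.0665, 0.0761 and 0.0674 from edgeR).

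Plasminogen activation is carried by Plat, Plau, Plaur and Serpine2. Plat encodes tissue-type plasminogen activator, the main activator within vessels, on chromosome 8 from 22757727 to 22782844. It stood at 12.03, 9.27, 10.4 and 12.3 CPM after DMSO and at 20.3, 22.8 and 33.1 CPM after ABT-263. Here mouse 478 was highest and mouse 476 lowest of the ABT-263 group, whereas mouse 476 was highest for F3 and Tfpi. The log2 fold change was 1.20 (SE 0.20, adjusted p = 0.008775 from edgeR).

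Plau encodes urokinase, the activator that acts on cell surfaces, on chromosome 14 from 20836660 to 20843385. It rose from 53.1, 37.8, 45.1 and 34.8 CPM to 74.1, 85.7 and 64.6 CPM, without overlap. Its log2 fold change of 0.81 (SE 0.18, adjusted p = 0.0171 from edgeR) was the smallest among the members that passed. With any 1 mouse left out, Plat (0.97 to 1.35) and Plau (0.72 to 0.93) passed in every fit, and neither was higher in mouse 476 than in the mean of the other ABT-263-treated mice.

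Plaur encodes the urokinase receptor, which holds urokinase on the cell surface and is made by leukocytes and by migrating keratinocytes. It lies on chromosome 7 from 24462484 to 24475968. In the DMSO group it measured 11.05, 9.14, 11.3 and 14.0 CPM, and in the ABT-263 group 242, 39.8 and 13.9 CPM. Mouse 478 was inside the DMSO range, so Plaur rose by its test while its groups overlapped. The log2 fold change was 3.11 (SE 0.85, adjusted p = 0.0375 from edgeR), or 8.65-fold with an interval from 2.18 to 34.4. It passed in 1 of the 7 fits without 1 mouse, that without mouse 478 (3.63). It did not pass without mouse 476 (1.25, adjusted p = 0.0731 from edgeR), without mouse 477 (3.54, adjusted p = 0.0551), or without DMSO-treated mouse 480, 481, 482 or 483 (3.02 to 3.23, adjusted p = 0.0733 to 0.0826).

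Serpine2 encodes protease nexin-1, an inhibitor of thrombin and of both plasminogen activators, on chromosome 1 from 79794197 to 79861180. Its values were 40.3, 66.5, 64.3 and 77.0 CPM after DMSO and 60.9, 65.1 and 72.6 CPM after ABT-263. All 3 ABT-263-treated mice lay inside the DMSO range, and the log2 fold change was 0.09 (SE 0.21, adjusted p = 0.770 from edgeR). The 95% interval from -0.39 to 0.57 overlapped that of Plau (0.41 to 1.21). The Serpine2 value was -0.068 without DMSO-treated mouse 480 and -0.00706 after length and GC trends were removed.

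**Figure D2:**
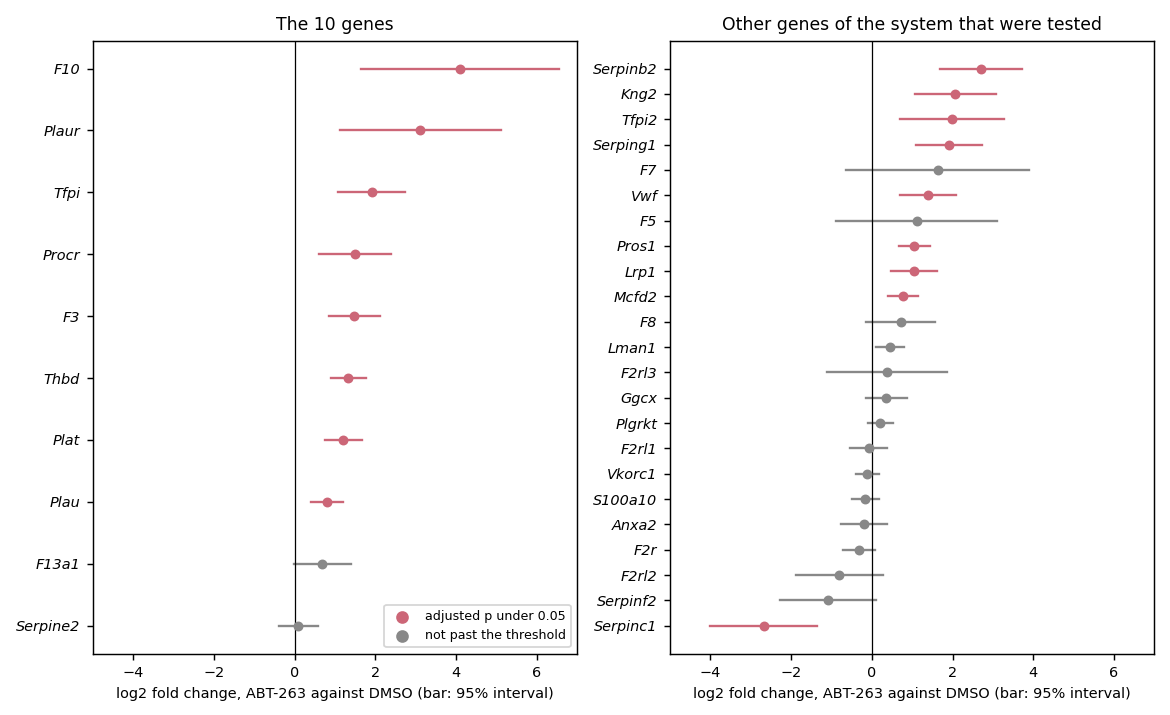
Log2 fold change, ABT-263 over DMSO, with its 95% confidence interval from edgeR on 4 and 3 mice, for the 10 members (left) and the 23 other tested genes of the system (right), coloured where the adjusted p was under 0.05. Among the members the intervals of F10 (1.65 to 6.56) and Plaur (1.12 to 5.10) are the widest and those of F13a1 and Serpine2 cross 0, and on the right 8 coloured genes lie above 0 and 1, Serpinc1, below it.

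**Figure D3:**
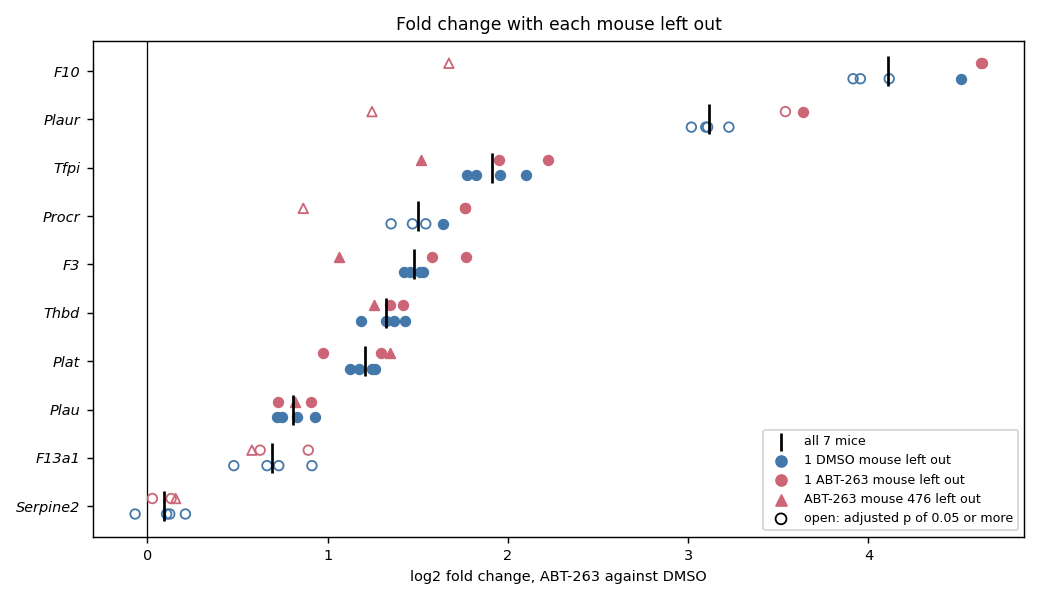
Log2 fold change of each member with all mice and with 1 mouse left out at a time, with filled points for fits that passed an adjusted p of 0.05. F3, Thbd, Tfpi, Plat and Plau passed in all 7 fits, F10 and Procr in 3, Plaur in 1, and F13a1 and Serpine2 in none.

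Mouse 476 was the highest ABT-263-treated mouse for 7 members, namely F3, F10, F13a1, Thbd, Procr, Tfpi and Plaur. Plau was highest in mouse 477, and Plat and Serpine2 in mouse 478. The summed level of the 10 members was 229 to 320 CPM in the DMSO group, and 908, 457 and 500 CPM in mice 476, 477 and 478, so mouse 476 carried the most transcript of this group of genes while the other 2 also lay above every DMSO-treated mouse. The members that passed without mouse 476 were F3, Thbd, Tfpi, Plat and Plau, which is 5 of 10 where 12% of all genes passed in either direction. Without DMSO-treated mice 481, 482 and 483 the count was also 5, beside 16.1%, 10.3% and 11.7% of all genes, and without mice 480 and 477 it was 7, beside 23.5% and 21.6%. Without mouse 478 it was 8, beside 9.39%. By other tests the members that passed numbered 5 with no filter on low counts (11.1% of all genes), 6 with limma on the authors' variance-stabilized values (23.4%), and 7 with the DESeq2 Wald test (26.6%) or 8 without its filter on outlying counts (26.7%).

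Because several members act in pairs with opposed or matched roles, their ratios were compared within each library, where the scaling between libraries drops out apart from a pseudocount of 0.5 CPM. On the log2 scale the ratio of F3 to Tfpi, initiator to inhibitor, was 3.02 ± 0.42 (SD, n = 4) after DMSO and 2.69 ± 0.11 (SD, n = 3) after ABT-263 (exact permutation test over mice, two-sided, p = 0.286). The ratio of Thbd to Procr was 0.04 ± 0.42 and 0.02 ± 0.70 in the same order (exact p = 0.943), and that of F3 to Thbd was 0.67 ± 0.24 and 0.72 ± 0.51 (exact p = 0.914). Each of these genes rose, while no difference in their ratios exceeded the SD pooled over both groups, which does not show that the ratios were equal. For F3 to Tfpi the difference of -0.329 was close to the pooled SD of 0.332 and larger than the SD within the ABT-263 group.

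Among the activators, the log2 ratio of Plau to Plat was 1.90 ± 0.30 (SD, n = 4) and 1.56 ± 0.53 (SD, n = 3; exact permutation p = 0.371). That of Plau to its inhibitor Serpine2 was -0.51 ± 0.66 and 0.17 ± 0.30 (exact p = 0.143). The ratio of receptor to ligand, Plaur to Plau, moved from -1.86 ± 0.40 to -0.52 ± 2.00 with a range from -2.17 to 1.70 across the ABT-263-treated mice (exact p = 0.200). This difference of 1.34 was 0.22 without mouse 476. The groups overlapped for each of the 6 ratios, and the adjusted p-values lay between 0.557 and 0.943, where 0.0286 is the smallest p that 4 against 3 mice allow before adjustment.

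**Figure D4:**
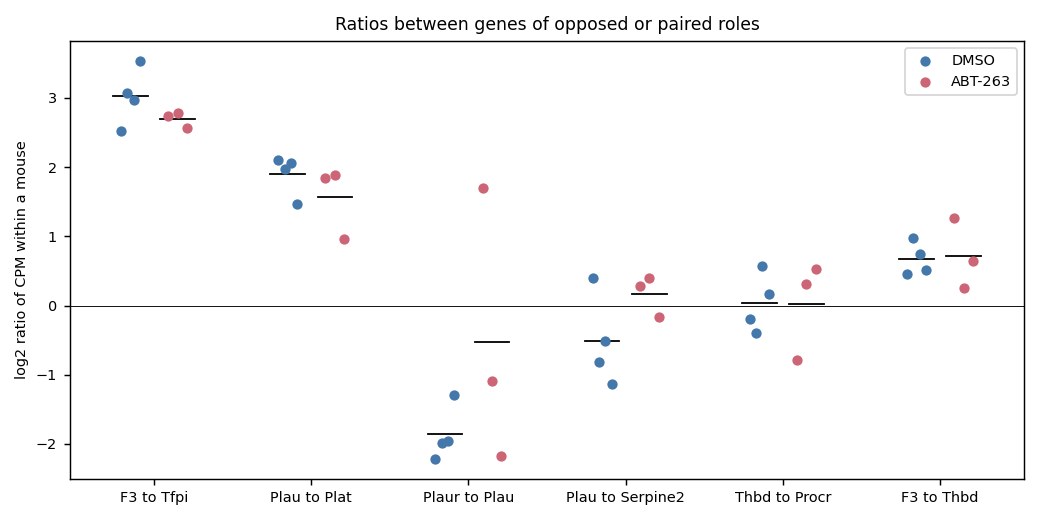
Log2 ratios of 6 pairs of members in each mouse, with DMSO and ABT-263 side by side and group means as lines. The groups overlap in every pair, and the Plaur to Plau ratio spreads most within the ABT-263 group (-2.17 to 1.70).

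Levels between genes were compared as CPM per kilobase of exon. The length joined all annotated exons of a gene, 2.37 kilobases for Plau, 6.74 for F13a1 and 8.29 for Serpine2. The order depends on this length, since the DMSO means of F13a1 (84.7 CPM) and Serpine2 (62.0 CPM) exceeded that of Plau (42.7 CPM). In DMSO-treated skin Plau was highest (18.0 CPM per kilobase), followed by F13a1 (12.6), F3 (11.7), Procr (9.01), Serpine2 (7.49), Thbd (5.02), Plaur (4.34), Plat (1.76), Tfpi (0.601) and F10 (0.543). Neighbours in this order overlapped between mice, except Plaur above Plat and Plat above Tfpi. After ABT-263 the means ran from Plaur (37.6 CPM per kilobase) through F3 (32.7) and Plau (31.6) down to Tfpi (2.26), but the Plaur mean spans 5.32 to 92.3 across the 3 mice. The urokinase receptor thus had the highest mean per kilobase and also the widest range, whereas the lowest ABT-263-treated mouse had 20.2 CPM per kilobase of F3 and 27.3 of Plau.

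The rest of the pathway was described with 42 further genes of clotting, its inhibitors, factor processing, protease-activated receptors and the plasminogen system. Of these, 23 had enough counts to be tested, 8 were higher and 1 lower, where 12.4% of all genes tested were higher and 11.7% lower, and the median log2 fold change was 0.45. Transcripts of some liver-made proteins were scarce. F2 (prothrombin), Fga, Fgb and Fgg (the fibrinogen chains) and Plg (plasminogen) were not tested, with at most 26 counts in any library, so these data hold little on these transcripts in skin.

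Of the 5 clotting factor genes tested, 2 rose. Vwf encodes von Willebrand factor, the endothelial protein that tethers platelets and carries factor VIII, and its range of 33.8 to 90.1 CPM in the DMSO group gave way to 127 to 167 CPM in the ABT-263 group, a rise of 1.40 on the log2 scale (edgeR adjusted p = 0.0170). Kng2, a kininogen gene, rose by 2.07 on the log2 scale from a low level of 0.615 CPM (adjusted p = 0.0161). Among inhibitors, Pros1 (protein S, the cofactor of activated protein C) went from 42.5 ± 5.22 up to 88.3 ± 18.1 CPM, by 1.05 on the log2 scale (adjusted p = 0.00819), and Tfpi2, a serine protease inhibitor related to Tfpi, rose by 1.99 (adjusted p = 0.0374). Serpinc1 (antithrombin) was the 1 gene that fell, by 2.68 on the log2 scale, from 0.951 to 0.148 CPM (adjusted p = 0.0170), and Zbtb37 is annotated as overlapping it on the other strand. With 1 mouse left out, Pros1 passed in all 7 fits. Vwf did not pass without mouse 482 or 478 (1.34 each, adjusted p = 0.0539 and 0.0563 from edgeR), Kng2 without mouse 476 (1.64, adjusted p = 0.0519) and Serpinc1 without mouse 478 (-2.28, adjusted p = 0.0599). Tfpi2 passed only without mouse 477, its values without each other mouse lying between 1.36 and 2.21 (adjusted p = 0.0642 to 0.144).

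Mcfd2, which helps export factors V and VIII from the cell, rose by 0.76 (adjusted p = 0.0166 from edgeR), and it was the only one of 4 factor processing genes that passed. None of the 4 protease-activated receptor genes (F2r, F2rl1, F2rl2 and F2rl3), the cell-surface sensors of thrombin and related proteases, passed, and their log2 fold changes lay between -0.80 and 0.37. At an unadjusted p under 0.05 the count was also 0 of 4, as it was by the DESeq2 Wald test. Of all genes, at least 24.2% passed at the unadjusted threshold and 26.6% by the Wald test. The plasminogen system had 3 of 7 tested genes higher. Serpinb2, which encodes PAI-2, an inhibitor of urokinase, was at 13.8 to 17.1 CPM after DMSO and at 180, 45.5 and 66.7 CPM after ABT-263 (log2 fold change 2.71, adjusted p = 0.00886), and 12.4% of its exon bases are shared with Serpinb10. Serping1 (C1 inhibitor, which also acts on kallikrein and factor XII) rose by 1.91 (adjusted p = 0.0121), and Lrp1, the clearance receptor for activator and inhibitor complexes, rose by 1.05 (adjusted p = 0.0222). Mcfd2, Serpinb2 and Serping1 passed with any 1 mouse left out, and Lrp1 did not pass without mouse 482, 476 or 478 (0.80 to 1.09, adjusted p = 0.0581 to 0.0637 from edgeR).

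Markers of the cell types that skin can hold were summed in each library and set beside these values. Keratinocyte markers, which define the labelled tissue, summed to 20632 to 50420 CPM after DMSO and 17901 to 50451 CPM after ABT-263, and 1 of the 6 (Itga6) rose. Fibroblast markers went from 3717 to 5187 CPM up to 5863 to 8137 CPM (3 of 6 rose), endothelial markers from 165 to 329 CPM up to 445 to 552 CPM (5 of 6 rose), and macrophage markers from 221 to 656 CPM up to 658 to 1587 CPM (5 of 6 rose). Each of these sums was higher in every ABT-263-treated mouse, as were neutrophil markers, at 99.8 to 1820 CPM after DMSO and 5097 to 8318 CPM after ABT-263 (3 of 5 tested rose). S100a8 (1714 to 2912 CPM after ABT-263) and S100a9 (3355 to 5016 CPM) made up most of the neutrophil sum, so it mainly follows these genes. Csf3r (1.35 to 3.72 CPM after DMSO and 10.7 to 78.0 CPM after ABT-263) was also higher in every ABT-263-treated mouse. So was Cxcr2 (0.801 to 12.7 CPM and 13.6 to 66.4 CPM), by a narrow gap. S100a9 and Cxcr2 did not pass (adjusted p = 0.0772 and 0.0965 from edgeR). The DESeq2 Wald test, with its filter on outlying counts, called only S100a8 and S100a9 on this list. Mouse 476 had 232 CPM of the neutrophil marker Retnlg, against 2.09 and 3.03 CPM in mice 477 and 478. Ly6g measured 14.0, 0.101 and 0.172 CPM in the same mice, and 0, 0.253, 0 and 0.123 CPM in DMSO-treated mice 480 to 483. It was not tested, and DMSO-treated mouse 481 lay above mice 477 and 478.

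The skeletal muscle sum was lower in every ABT-263-treated mouse, at 19927 to 29026 CPM against 30022 to 63231 CPM (2 of 6 fell). Ranges overlapped for platelet markers (34.6 to 85.2 CPM and 59.6 to 81.7 CPM), of which Gp6 was at 0 in 2 libraries, and for erythrocyte markers, at 158 to 276 CPM and 135 to 1747 CPM with mouse 476 at the top. Pf4 (22.3 to 70.8 CPM and 47.4 to 67.3 CPM) made up most of the platelet sum. Of the exon bases of Gp1bb, 92.9% are shared with Gm49601 and Sept5 on the same strand. Ranges overlapped also for hair follicle markers (23.8 to 1725 CPM and 2.86 to 317 CPM) and hepatocyte markers (12.5 to 140 CPM and 26.3 to 168 CPM). Cyp2e1 (10.2 to 115 CPM and 25.3 to 167 CPM) made up most of the hepatocyte sum, so it mainly follows this gene. Its log2 fold change was 0.87, against -2.33 for Alb, -1.60 for Apoa1 and -0.28 for Ttr. In these 4 lists edgeR called no tested marker. At an unadjusted p under 0.05 it would be 2 of 5 platelet, 1 of 5 erythrocyte, 1 of 5 hair follicle and 0 of 4 hepatocyte markers. At least 24.2% of all genes passed at that threshold, the share that passed after adjustment. The DESeq2 Wald test called Ppbp and Hoxc13, beside 26.6% of all genes. By exact permutation tests of the 10 sums, the fibroblast sum gave p = 0.0286 and the endothelial, macrophage, neutrophil and muscle sums p = 0.0571 each, and none passed after adjustment (0.114 or more). As 0.0286 is the smallest p that 4 against 3 mice allow, a sum could pass only if most of the 10 reached it. The adjusted values therefore cannot decide whether the sums differed.

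**Figure D5:**
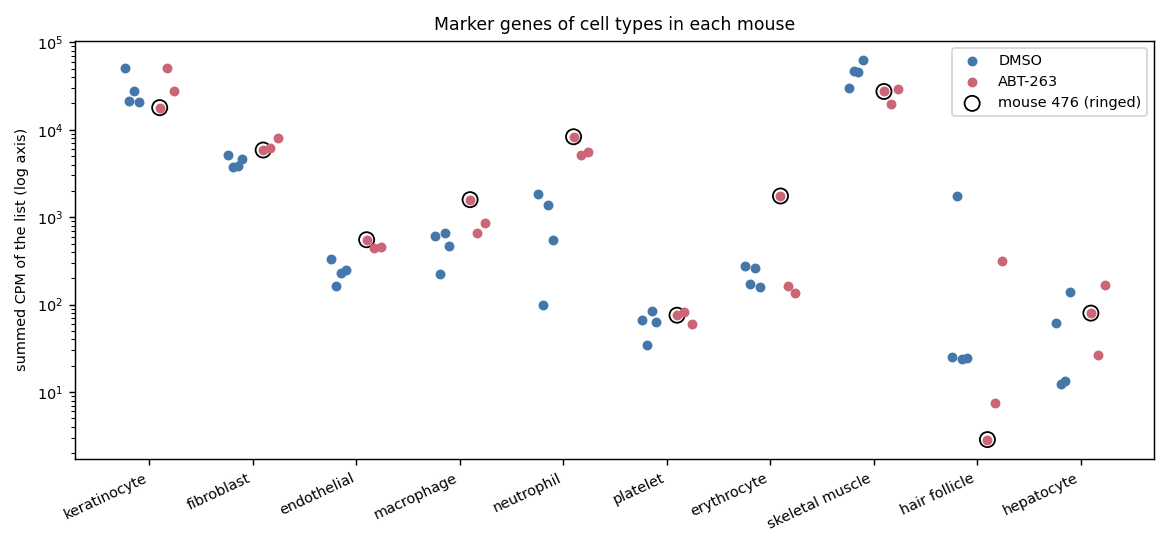
Summed CPM of marker genes of each cell type in every mouse, on a log axis, for DMSO and ABT-263. Fibroblast, endothelial, macrophage and neutrophil sums are higher in all 3 ABT-263-treated mice, the muscle sum is lower, and mouse 476 stands apart in the erythrocyte sum (1747 CPM).

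Divided by the endothelial sum of the same library, F10 and Thbd were still higher in every ABT-263-treated mouse and the groups of the other 8 members overlapped, where 1.68% of all genes tested stayed higher. Divided by the fibroblast sum, Thbd, Tfpi and Plat stayed apart (3.69% of all genes), and divided by the macrophage sum none of the 10 did (1.41%). No division by the neutrophil sum was made. The part of changed cell composition in the members' values was not tested beyond the ratios to the endothelial, fibroblast and macrophage sums, which were chosen after the data were seen.

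Genes whose pattern over the 7 libraries was most like that of a member were found by the root mean square difference of centred log2(CPM + 0.5), among 15583 genes with a mean of at least 1 CPM. The smallest differences were 0.09 for F3 (Ets1, then Birc3 and Tspan4), 0.10 for Thbd (Mxra8, Sec24d and Capn2), 0.09 for Plat (Fkbp9, Gm15519 and Olfml3) and 0.11 for Plau (Dusp7, Gm6580 and Crtap). Procr was nearest to Sema7a, Sh2d3c and S1pr3 (from 0.12) and Tfpi to Evi2a, Apobec1 and Nfkbiz (from 0.14). F10 and Plaur, the members with mouse 476 far above the rest, had less close neighbours, Mcemp1, Clec7a and Upp1 (from 0.30) and Samsn1, Tnf and Il24 (from 0.26). Among the members themselves, Thbd and Plat were closest (0.27). F10 and Serpine2, with the largest and smallest log2 fold change (4.11 and 0.09), were farthest apart (1.85). The differences were not scaled to each gene's spread, so in part they restate the size of the changes.

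Promoters were read for every member with an entry, as windows from 250 bases before to 50 bases after the transcript start in RefSeq on GRCm38.p6. Windows were found for 7 of the 10 members, and none was matched for Thbd, Plat and Plau. The palindromic AP-1 letters TGANTCA, with any base allowed at N, occur in the windows of F3, Plaur and Procr, against 7.81% of 32851 promoter windows of the same length. Narrower forms with only C or G at N were not counted apart. The stretches around them are shown because these are the members, all of which rose, whose windows hold the letters. Each is on the plus strand, 5′ to 3′, with the AP-1 letters in capitals, for F3 at chr3:121723356-121723443, for Plaur at chr7:24462379-24462455 and for Procr at chr2:155751028-155751104.
F3: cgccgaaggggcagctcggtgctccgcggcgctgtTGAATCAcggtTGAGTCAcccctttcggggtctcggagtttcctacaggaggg
Plaur: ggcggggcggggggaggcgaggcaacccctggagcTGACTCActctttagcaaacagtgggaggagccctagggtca
Procr: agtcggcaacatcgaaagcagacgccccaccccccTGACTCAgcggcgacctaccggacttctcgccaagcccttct

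In F3 the matches begin 146 and 135 bases before the start, with A and G in turn as the middle base. In Plaur the match begins 69 and in Procr 154 bases before it, each with C in the middle. The window of F10, whose level in mouse 476 stood out most, holds none. Of the other letters searched on both strands, the GC box GGGCGG was found in F3, Plaur, Serpine2 and Tfpi (35.7% of all windows). TATAAA was found in F3, 43 bases after the start, and in Tfpi, 127 bases before it (13.6%). GGG and TTTCC set 2 bases apart, 1 form bound by NF-kappa-B, occurred in no member (1.63%). Variants that differ from these letters were not searched, so this absence covers that form only. A match is a run of letters and was not tested as a binding site.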

How the data were processed

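Reads were aligned by the authors with STAR 2.7.9a to mm10, and counts of uniquely aligned proper pairs per Ensembl gene (build 109), same strand, came from featureCounts of Subread 1.6.2, without mitochondrial genes. The deposited counts are raw. A further deposited table holds values on a log2-like scale, which the authors made with the variance-stabilizing transformation of DESeq2 1.23.10 and which served as an alternative only. Total counts were 20344364 to 26824123 (DMSO) and 27325963 to 43562330 (ABT-263), every ABT-263 library being larger. Symbols and positions came from GENCODE M21 on GRCm38, not the authors' annotation build, for 55190 of 55450 genes.

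In R 4.3.3, edgeR 4.0.16 (TMM, filterByExpr, robust quasi-likelihood test, two-sided, Benjamini-Hochberg adjustment, threshold 0.05) was fitted to 17959 genes and checked on simulated data. Ratios and marker sums were compared by exact permutation of the 35 assignments of mice. Alternatives used DESeq2 1.42.0 (Wald test, size factors), limma 3.58.1, mgcv 1.9.3 (length and GC trends), other filters, thinned counts and leaving out each mouse. Members, lists and marker genes were chosen with earlier results of these data known. Named genes of the wider list are those past the threshold plus F2, Fga, Fgb, Fgg, Plg and Vwf, and 1 gene first placed on that list is not reported here. The protease-activated receptors and the markers Itga6, S100a8, S100a9, Csf3r, Cxcr2, Retnlg, Ly6g, Gp6, Ppbp, Hoxc13, Pf4, Gp1bb, Cyp2e1, Alb, Apoa1 and Ttr fall outside that rule and were named after their values were seen. The labels name no batch, and each mouse gave 1 library.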

Additional observations from a re-analysis of the deposited data

Results flagged for a closer look

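In the DMSO group, 1 mouse stood apart from the other 3 in 1 of 35 measures examined, and chance alone would give about 1.75. Summed hair follicle markers were at 1725 CPM in DMSO-treated mouse 481 and at 25.5 CPM in the next highest, a gap of 0.999 of the group's range and past Dixon's critical value for 4 samples. Its part in the members' values was not tested.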

How the results depend on the processing

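Of the 10 members, 8 passed in the main test, 5 when no filter on low counts was used (F10, Procr and Plaur lost), and 5 to 8 with 1 mouse left out, the low value without DMSO-treated mice 481, 482 and 483 and without ABT-263-treated mouse 476. Over all genes 4342 passed, against 1735 to 4169 with 1 mouse left out (2837 without mouse 481, 1824 without 482, 2063 without 483, 2228 without 476 and 1735 without 478). Of the wider list 9 passed, and 5 to 9 did so with 1 mouse left out (9.39% to 23.5% of all genes), with 5 without mouse 478 (9.39%). Serpine2 reversed to -0.00706 with length and GC trends removed, an alternative that moved the median of all genes by -0.10, and to -0.068 without DMSO-treated mouse 480 (-0.068 to 0.21 with 1 mouse left out). On the authors' variance-stabilized values with limma, F10 (adjusted p = 0.0667) and Plaur (adjusted p = 0.0910) did not pass. The Wald test of DESeq2 gave no adjusted p for F10 with its filter on outlying counts, and 0.00136 without that filter, an alternative chosen after the data were seen. No ratio passed with a pseudocount of 2 CPM or on the variance-stabilized values, no marker sum passed with DESeq2's size factors, and each moved by less than 1 pooled SD with 1 mouse left out. The smallest exact p that 4 against 3 mice allow limited these adjusted p-values in advance. The causes were not tested. No paired analysis was possible because mouse numbers differ between the groups. With 3 and 4 mice, intervals are wide for members that vary between mice, and F10 rests on few counts after DMSO.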
